A study of Mus musculus with 6 samples.

Results

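The regulators of apoptosis and necroptosis were followed in mouse colonic mucosa as a set of 35 genes, taken by name and grouped as the BCL2 family, caspases with the apoptosome, inhibitors of apoptosis (IAPs) and death receptor signalling. A gene was measured by the brightest of its probe sets over all 6 arrays. Of the 35 genes, 33 had a probe set named for them alone, and 31 were bright enough to be tested among 12437 genes in all. Bax, a pore former, and Ripk1, a kinase of the receptor complex, had no such probe set and were not analysed here. Bcl2l15, a BCL2 relative described in the gut, and Tnfrsf10b, the mouse TRAIL receptor gene, were too dim to test.

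Total RNA of colonic mucosa from untreated C57BL/6 mice, whose cell type is labelled intestinal epithelial cells, was hybridised to Affymetrix 3' arrays. The genotype label was p38a knockout on 3 arrays and wild type on the other 3, and the arrays of each group carry the letters A, B and C. Mapk14 encodes p38a, a kinase activated by stress, and the comparison asks which transcripts differ with its loss. No label gives the age of the mice, the extent of the deletion or a Cre line. None says that the arrays of a group came from separate animals, so the p-values below reflect the spread among these samples alone, and that spread may be technical. Array values are given in the order A, B, C as log2(signal + 16) after quantile normalization, called the signal, and differences are the arrays labelled knockout minus wild type on that scale. The pseudocount of 16 makes differences of dim genes smaller. There is no count depth on arrays, and their number limits the precision.

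Cell death by apoptosis runs along 2 routes. In the mitochondrial route, BH3-only proteins block the survival proteins of the BCL2 family or act on the pore formers, the outer mitochondrial membrane opens, and cytochrome c and Apaf1 assemble the apoptosome that activates Casp9. In the death receptor route, Fas, the TNF receptor or the TRAIL receptor recruit adaptors that activate Casp8. Where Casp8 is blocked, the kinases Ripk1 and Ripk3 can instead activate Mlkl, which ruptures the membrane in necroptosis. The intestinal epithelium is renewed continuously and sheds old cells, and loss of Casp8 from it is known in mice to cause necroptosis of Paneth cells.

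Some facts about the arrays bear on every value. Mapk14 was higher, not lower, where knockout was the label: its signal was 9.72, 9.91 and 9.73 in the arrays labelled knockout and 9.31, 9.44 and 9.37 in wild type (difference 0.41, SE 0.14, limma adjusted p = 0.902, exact two-sided permutation p = 0.1). These values are of the brightest of its 6 probe sets, and the mean of its probe sets above the filter differed by 0.32. By these values the targeted gene goes against the label, although a probe set outside a deleted part checks nothing, and "the arrays labelled knockout" is written for that reason. The 12 epithelial markers were bright on all arrays, with summed linear signals of 93656 to 105989 in the arrays labelled knockout and 93805 to 104500 in wild type. Markers of other cells were present at lower sums. Those of 6 T cell genes, of 10 listed, were 314, 657 and 426 in the arrays labelled knockout and 735, 363 and 1442 in wild type, with Cd4 and Cd2 below the filter, and all 6 were lower on average. Those of 5 B and plasma cell genes, of 9 listed, were 986, 3908 and 2275 in the arrays labelled knockout and 4236, 577 and 3778 in wild type, with Cd79a and Tnfrsf17 below the filter. Those of 4 smooth muscle genes, of 6 listed, were 597, 257 and 328 in the arrays labelled knockout and 291, 159 and 263 in wild type, with Myh11 and Cnn1 below the filter. Of the other lists, 3 of 3 tested neutrophil genes were higher and 5 of 6 fibroblast genes lower on average. The neutrophil sums were 111, 489 and 46.9 in the arrays labelled knockout and 92.2, 82.0 and 127 in wild type. The fibroblast sums were 623, 2888 and 1265 in the arrays labelled knockout and 2241, 1409 and 2284 in wild type. For both lists the array labelled knockout B was the highest of the 6. Mpo, Elane and Pdgfra were below the filter. Of 8 listed genes of the exocrine pancreas 2 were tested, and Cpa1, Cpb1, Ctrb1, Cela2a and Cel were below the filter. The 2 summed to 72.7, 68.1 and 53.2 in the arrays labelled knockout and 62.3, 293 and 54.1 in wild type, so that wild type B stood apart. The Gapdh 3'/5' control ratio, a measure of RNA degradation that is higher in degraded RNA, was 0.907, 0.954 and 0.859 in the arrays labelled knockout and 1.10, 0.989 and 1.45 in wild type. Wild type A and C had the highest ratios of the 6 arrays, wild type C most of all. All 3 wild-type ratios lay above those of the arrays labelled knockout. A fit that includes the ratio therefore cannot tell it apart from the label. In bulk RNA, fewer cells of a type and less RNA per cell cannot be told apart.

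Most regulators of cell death had small differences between the groups. No gene passed limma at an adjusted p of 0.05: 0 of the 31 tested regulators and 0 of the 12437 genes (0.0%). At an unadjusted p under 0.05 stood 1 regulator, Casp12, against 490 of all genes (3.94%). Of the 31 regulators 9 were higher and 22 lower (71.0%, against 46.8% of all genes), with a median difference of -0.05 against 0.02 for all genes. This split depended on scaling and on single arrays: it was 14 higher and 17 lower with arrays as deposited or centred, relative to the median of all genes, 16 and 15 without the array labelled knockout A, and 18 and 13 both against wild type B alone and in a fit that included the Gapdh ratio. In 27 of the 31 the difference was smaller than 0.5 in size, and the extremes were -0.57 for Bid and 0.60 for Casp12. All arrays labelled knockout lay above all wild-type arrays for 1 gene, Casp12 (4.68% of all genes), and below them for 2, Bok and Tnfrsf1a (4.38%). Together these are 3 of 31, where 9.06% of all genes had groups that did not overlap, a share close to theirs. These counts depended on the scaling: they were 10 higher and 0 lower on the signals as deposited (24.5% and 0.467% of all genes), and 6 higher and 1 lower with centred arrays (6.92% and 2.72%). For each of the 3 the exact two-sided permutation p was 0.1, the smallest that 3 against 3 arrays can give.

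**Figure D1:**
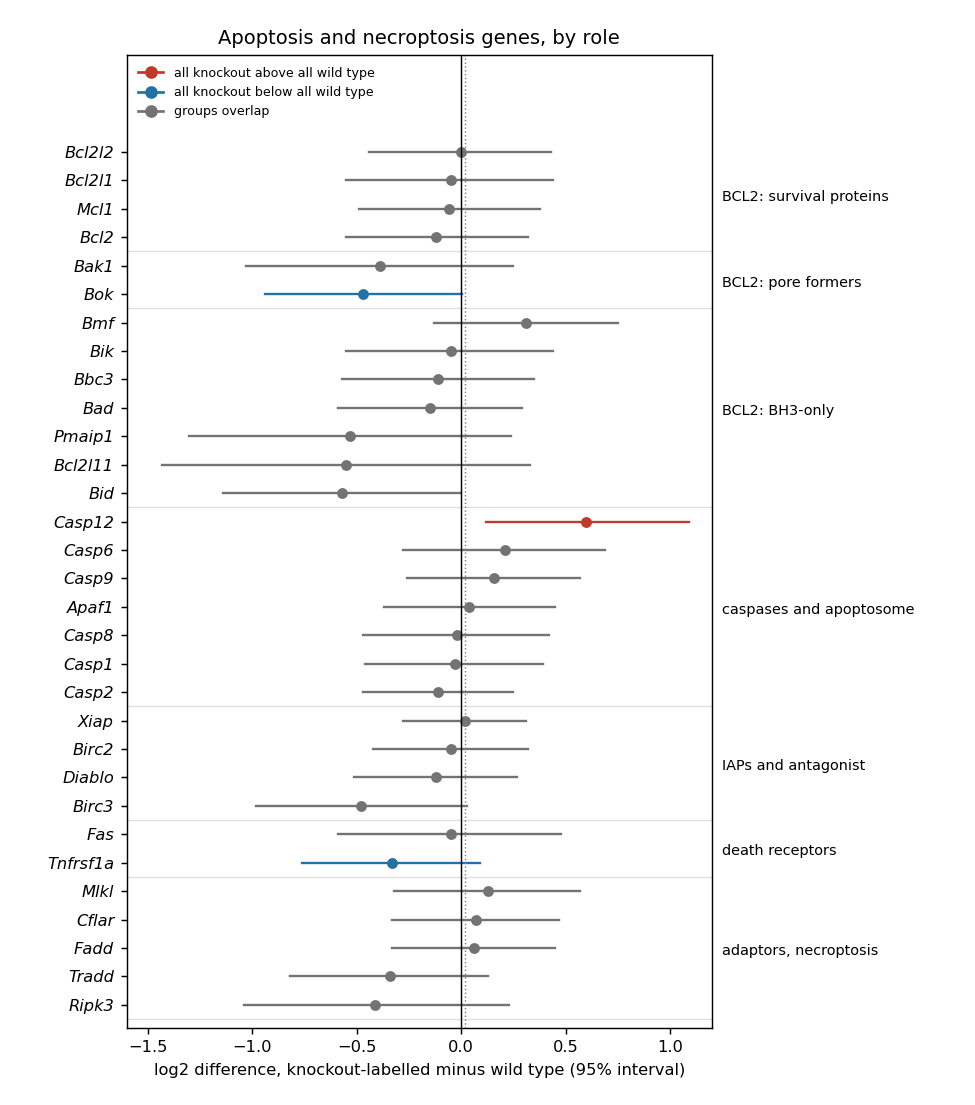
Log2 difference of each tested gene, arrays labelled knockout minus wild type (points), with limma's 95% interval (lines), grouped by role; the dotted line is the median of all genes tested, 0.02. Casp12 (0.60, interval 0.12 to 1.09) is the gene whose interval lies wholly above 0; every other interval reaches 0, those of Bok and Bid only just.

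These 3 genes, whose groups did not overlap, are shown with the 250 bases before their annotated start, from RefSeq on GRCm38.p6, each on the plus strand. The Casp12 window is chr9:5345226-5345475, the Bok window chr1:93685325-93685574 and the Tnfrsf1a window chr6:125349473-125349722. Capitals mark the 1 match found to any of 5 motifs searched on both strands, a GC box in Bok read from the minus strand.
Casp12: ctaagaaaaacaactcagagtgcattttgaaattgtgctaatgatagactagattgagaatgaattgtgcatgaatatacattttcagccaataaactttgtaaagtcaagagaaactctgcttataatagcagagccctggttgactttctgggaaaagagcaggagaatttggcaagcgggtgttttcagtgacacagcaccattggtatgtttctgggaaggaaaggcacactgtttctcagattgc
Bok: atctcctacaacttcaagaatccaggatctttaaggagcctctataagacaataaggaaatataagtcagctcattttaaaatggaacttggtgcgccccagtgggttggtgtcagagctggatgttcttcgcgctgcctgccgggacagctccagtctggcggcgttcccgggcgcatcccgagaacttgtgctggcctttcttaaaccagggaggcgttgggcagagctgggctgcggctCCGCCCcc
Tnfrsf1a: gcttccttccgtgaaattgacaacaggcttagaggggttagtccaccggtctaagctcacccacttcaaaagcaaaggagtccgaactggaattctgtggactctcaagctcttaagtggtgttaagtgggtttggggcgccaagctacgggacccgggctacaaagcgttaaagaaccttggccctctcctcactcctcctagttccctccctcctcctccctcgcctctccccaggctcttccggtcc
The windows differ in composition. That of Casp12 has 39.2% G or C and 1 CpG, that of Bok 55.2% and 12, and that of Tnfrsf1a 55.6% and 9, while the median of 32851 such windows is 52.4% and 6. The motifs were the AP-1 element TGANTCA, the cyclic AMP response element TGACGTCA, the NF-kB core GGGANTTTC, the TATA box TATAAA and the GC box GGGCGG, none of which can contain another. Of the 35 genes 31 had a window. The AP-1 element was found for 1 of them, Fas (6.75% of all windows), the cyclic AMP response element for 1, Birc2 (1.55%), the TATA box for 2, Cflar and Xiap (12.4%), the NF-kB core for 0 (0.941%) and the GC box for 20 (32.7%). Some genes have several windows, so shares of genes and of windows are not on the same footing.

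The survival proteins of the BCL2 family, which hold the pore formers and BH3-only proteins in check, had small differences. All 4 were lower by small amounts, from -0.12 for Bcl2 to -0.0014 for Bcl2l2, and the groups overlapped for each. With arrays as deposited or centred, relative to the median of all genes, 2 were higher and 2 lower. Mcl1, a short-lived survival protein, had signals of 11.87, 12.37 and 12.05 in the arrays labelled knockout and 12.30, 11.80 and 12.36 in wild type (difference -0.06, 95% interval -0.49 to 0.38). Bcl2 itself had signals of 7.56, 7.28 and 7.17 in the arrays labelled knockout and 7.57, 7.49 and 7.31 in wild type (interval -0.55 to 0.32). Bcl2l1, the gene of BCL-XL, had signals of 8.30, 8.48 and 8.49 in the arrays labelled knockout, inside the wild-type values of 8.61, 8.06 and 8.76. Bcl2l2, the gene of BCL-W, had signals of 8.93, 8.74 and 9.19 in the arrays labelled knockout and 8.96, 9.17 and 8.75 in wild type. For Bcl2l1 and Mcl1 the lowest of the 6 arrays was wild type B. Of the 6 Mcl1 probe sets 5 were lower and 1 higher, from -0.34 to 0.02, and their mean differed by -0.17. Of the 5 Bcl2 probe sets 4 were lower and 1 higher.

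Both tested pore formers were lower. Bok, a pore former largely outside the control of the survival proteins, had signals of 7.46, 7.49 and 6.98 in the arrays labelled knockout and 7.93, 7.66 and 7.76 in wild type. The groups did not overlap, and the array labelled knockout C was the lowest. The means were 7.31 ± 0.29 in the arrays labelled knockout and 7.78 ± 0.14 in wild type (SD, n = 3 each), a difference of -0.47 (SE 0.21, limma adjusted p = 0.902), which is 1.38-fold lower. It had 1 probe set, and the difference was -0.30 without the array labelled knockout C. On the signals as deposited, 203, 183 and 131 in the arrays labelled knockout and 182, 198 and 138 in wild type, the groups overlapped. Bak1, one of the main pore formers of the outer membrane, had signals of 7.86, 8.18 and 8.12 in the arrays labelled knockout and 8.2, 8.05 and 9.07 in wild type. Wild type C stood high, and the Bak1 difference of -0.39 (95% interval -1.03 to 0.25) was -0.08 without that array.

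The BH3-only genes encode the sensors that start the mitochondrial route, and 6 of 7 were lower, with a median of -0.15, where 46.8% of all genes were lower. It was 3 of 7 both against wild type B alone and in a fit that included the Gapdh ratio. Bid, which is cut by Casp8 and carries the death receptor signal to mitochondria, had signals of 7.17, 7.11 and 7.24 in the arrays labelled knockout and 7.91, 7.22 and 8.11 in wild type. Wild type B lay among the arrays labelled knockout, and wild type A and C lay above them. The means were 7.18 ± 0.06 in the arrays labelled knockout and 7.75 ± 0.46 in wild type (SD, n = 3 each), a difference of -0.57 (SE 0.25, limma adjusted p = 0.902). Bcl2l11, the gene of BIM, had signals of 7.96, 8.17 and 7.97 in the arrays labelled knockout and 9.02, 7.60 and 9.15 in wild type. Here wild type B was the lowest array of all and wild type A and C the highest, for a difference of -0.55 (SE 0.38, limma adjusted p = 0.902). Of its 5 probe sets above the filter 3 were lower and 2 higher, and the next brightest differed by -0.12. Without wild type C the Bcl2l11 difference was -0.27. Pmaip1, the gene of NOXA, had signals of 8.47, 9.19 and 9.0 in the arrays labelled knockout and 9.66, 8.67 and 9.92 in wild type (difference -0.53, 95% interval -1.30 to 0.24). It showed the same split of the wild-type arrays, and the difference was -0.28 without wild type C and -0.33 without the array labelled knockout A.

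The other BH3-only genes lay closer together. Bmf, whose product is tied to the actin motor complex until cells detach, was the 1 BH3-only gene that was higher. It had signals of 7.57, 7.72 and 7.63 in the arrays labelled knockout and 7.10, 7.32 and 7.57 in wild type. Wild type C reached the lowest array labelled knockout, so the groups touched, and the difference was 0.31 (SE 0.19, limma adjusted p = 0.902). Its other probe set above the filter differed by 0.01, and the brightest carries a suffix that marks possible reading of related transcripts. Bad, held inactive by survival kinases, had signals of 7.83, 7.78 and 7.78 in the arrays labelled knockout and 8.26, 7.75 and 7.84 in wild type (difference -0.15). Its other probe set, almost as bright, differed by 0.06. That probe set read 8.05, 7.52 and 7.80 in the arrays labelled knockout and 7.60, 8.21 and 7.39 in wild type, with wild type B the highest. Bbc3, the gene of PUMA and a p53 target, differed by -0.11, and Bik, a BH3-only protein of the endoplasmic reticulum, by -0.05. Both were dim, with Bbc3 at 5.68 to 6.07 in the arrays labelled knockout and 5.88 to 6.13 in wild type. Bik had signals of 6.15, 5.80 and 5.53 in the arrays labelled knockout and 5.89, 5.83 and 5.91 in wild type. Its brightest probe set also carries a suffix of that kind, and its other probe sets differed by -0.08 and 0.23. The deposited signals of Bcl2l15, below the filter, were 3.88, 2.39 and 13.6 in the arrays labelled knockout and 6.47, 1.26 and 9.66 in wild type, too low for a comparison.

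Casp12 had the smallest p-value of the 31 genes. It encodes a caspase of the inflammatory group that lies at the endoplasmic reticulum. Its signals were 6.65, 6.36 and 6.41 in the arrays labelled knockout and 5.58, 5.98 and 6.05 in wild type, so that the groups did not overlap. The means were 6.47 ± 0.15 in the arrays labelled knockout and 5.87 ± 0.25 in wild type (SD, n = 3 each), a difference of 0.60 (SE 0.21, limma unadjusted p = 0.0202, adjusted p = 0.902), which is 1.52-fold higher. It ranked 179 of 12437 genes by p-value. The second Casp12 probe set did not overlap either, with signals of 6.73, 6.25 and 6.33 in the arrays labelled knockout and 5.42, 5.70 and 5.51 in wild type, a difference of 0.90. On the signals as deposited the brighter probe set read 99.2, 74.9 and 83.2 in the arrays labelled knockout and 27.3, 45.5 and 40.5 in wild type. All arrays are above the low-signal filter of about 18.4, but the gene is dim, and a pseudocount of 64 lowers the difference to 0.36. Against wild type B alone it was 0.50 and against wild type A and C 0.66. When single arrays were left out, the limma unadjusted p of Casp12 was no longer under 0.05 without the array labelled knockout A or without wild type A. The differences there were 0.52 and 0.46.

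Casp12 lies on chromosome 9 beside Casp4 and Casp1 in the RefSeq gene order, and these neighbours were not higher on average after quantile normalization. Casp1, which cuts pro-interleukin-1 beta and gasdermin D, had signals of 11, 11.06 and 11.56 in the arrays labelled knockout and 11.19, 11.07 and 11.46 in wild type. The groups overlapped, with a difference of -0.03 (95% interval -0.46 to 0.39) whose sign turned in 7 alternatives, up to 0.13. Casp4, the sensor of cytosolic lipopolysaccharide also called caspase-11 in mice, had signals of 9.23, 9.63 and 9.89 in the arrays labelled knockout and 10.44, 9.52 and 10.57 in wild type. The difference was -0.59 (SE 0.30, limma adjusted p = 0.902), and wild type B again lay among the arrays labelled knockout. The difference between the neighbours was not tested.

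**Figure D2:**
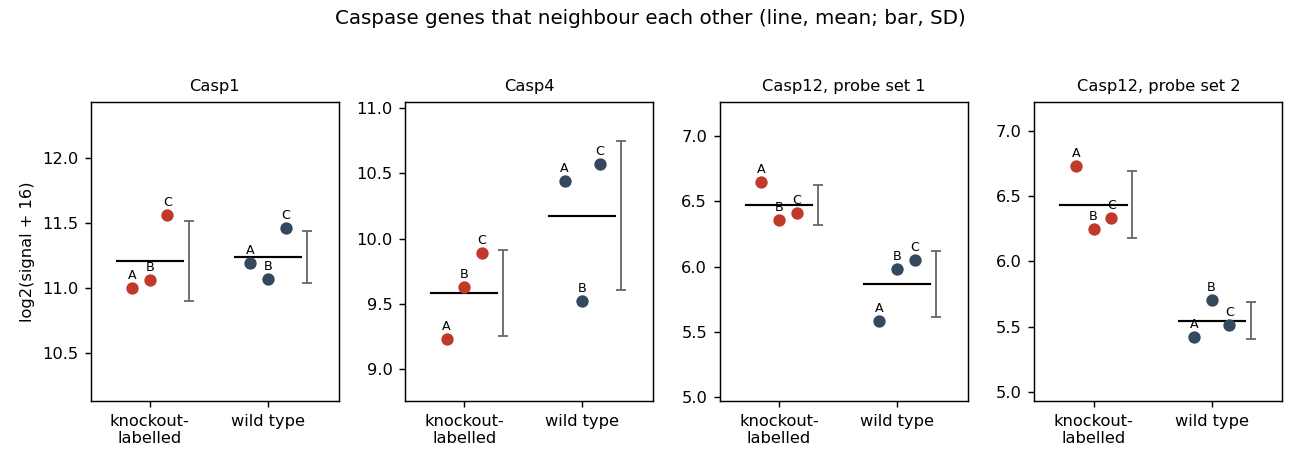
Signal, log2(signal + 16) after quantile normalization, of 3 neighbouring caspase genes on each array, with 2 probe sets for Casp12; letters name the arrays, lines are means and bars SD (n = 3). Both Casp12 panels show all arrays labelled knockout above all wild-type arrays, Casp1 overlaps, and for Casp4 wild type A and C lie above the rest.

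The other caspases and Apaf1 differed by 0.21 or less in size. Casp8, the initiator of the death receptor route, had signals of 10.36, 10.31 and 10.50 in the arrays labelled knockout and 10.44, 10.04 and 10.76 in wild type. The difference was -0.02 (95% interval -0.47 to 0.42). Casp9, the initiator of the mitochondrial route, differed by 0.16, and Apaf1, the scaffold of the apoptosome, by 0.04. Casp9 had signals of 6.98, 7.0 and 6.90 in the arrays labelled knockout and 6.95, 6.83 and 6.62 in wild type, so the groups overlapped through 1 array each. Casp6, an executioner, had signals of 8.90, 8.43 and 8.48 in the arrays labelled knockout and 8.44, 8.64 and 8.11 in wild type. Its difference of 0.21 (95% interval -0.28 to 0.69) came with overlap of the groups, and its second probe set differed by -0.20. Casp2, a caspase linked to DNA damage and chromosome number, differed by -0.11.

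The IAPs bind caspases or act as ubiquitin ligases in TNF receptor signalling. Birc3, the gene of cIAP2 and an NF-kB target, had the largest difference of the 4 genes in this role. Its signals were 9.85, 10.11 and 10.22 in the arrays labelled knockout and 10.59, 10.10 and 10.92 in wild type, with wild type B among the arrays labelled knockout. The means were 10.06 ± 0.19 in the arrays labelled knockout and 10.54 ± 0.41 in wild type (SD, n = 3 each), a difference of -0.48 (SE 0.22, limma adjusted p = 0.902). The second Birc3 probe set differed by -0.43, and without wild type C the difference of the brighter one was -0.29. Birc2, its neighbour on chromosome 9 and the gene of cIAP1, had signals of 8.61, 8.84 and 8.93 in the arrays labelled knockout and 8.76, 8.90 and 8.88 in wild type, a difference of -0.05 (95% interval -0.42 to 0.32). Xiap, the direct caspase inhibitor, had signals of 10.55, 10.72 and 10.67 in the arrays labelled knockout and 10.73, 10.61 and 10.55 in wild type. At 0.02 (95% interval -0.28 to 0.31) it had the narrowest interval of the 31 genes. Diablo, which encodes the mitochondrial protein that displaces IAPs from caspases, had signals of 8.40, 8.40 and 8.24 in the arrays labelled knockout and 8.31, 8.66 and 8.44 in wild type, a difference of -0.12.

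Among the death receptors, Tnfrsf1a was lower in every array labelled knockout than in every wild-type array, by a small margin. It encodes the TNF receptor with a death domain. Its signals were 8.97, 9.03 and 8.99 in the arrays labelled knockout and 9.29, 9.05 and 9.65 in wild type. Wild type B lay 0.05 above the knockout-labelled mean, and wild type C was the highest. The means were 9.0 ± 0.03 in the arrays labelled knockout and 9.33 ± 0.30 in wild type (SD, n = 3 each), a difference of -0.33 (SE 0.19, limma adjusted p = 0.902), which is 1.26-fold lower. Without wild type C it was -0.17. The groups overlapped before normalization: the signals as deposited were 652, 566 and 575 in the arrays labelled knockout and 484, 569 and 511 in wild type, higher on average in the arrays labelled knockout. A fit that included the Gapdh ratio turned the direction, to 0.03. Fas had signals of 7.22, 7.64 and 7.72 in the arrays labelled knockout and 7.84, 7.21 and 7.70 in wild type, overlapping throughout (difference -0.05, 95% interval -0.59 to 0.48). The deposited signals of Tnfrsf10b were 26.3, 16.6 and 15 in the arrays labelled knockout and 9.25, 18.2 and 1.07 in wild type, below the filter on average.

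The adaptors and the necroptosis kinase and effector had differences of both signs. Fadd, the adaptor that brings Casp8 to the receptors, had signals of 7.49, 7.49 and 7.33 in the arrays labelled knockout and 7.43, 7.41 and 7.28 in wild type (difference 0.06, 95% interval -0.33 to 0.45). Cflar, the gene of the Casp8 inhibitor FLIP, had signals of 8.56, 8.39 and 8.74 in the arrays labelled knockout and 8.64, 8.36 and 8.49 in wild type (difference 0.07), with 4 of its 5 probe sets higher and 1 lower. Tradd, the adaptor of the TNF receptor, had signals of 9.05, 9.30 and 9.45 in the arrays labelled knockout and 9.53, 9.32 and 9.98 in wild type. The difference was -0.34 (SE 0.21, limma adjusted p = 0.902), with wild type B among the arrays labelled knockout. It was -0.16 without wild type C, and the other Tradd probe sets differed by -0.06 and 0.05. Ripk3, the necroptosis kinase, had signals of 8.30, 8.45 and 8.78 in the arrays labelled knockout and 9.06, 8.34 and 9.35 in wild type, with the same split of the wild-type arrays. The Ripk3 difference was -0.41 (SE 0.28, limma adjusted p = 0.902), and -0.19 without wild type C. Mlkl, the substrate of that kinase, had signals of 8.51, 8.08 and 8.51 in the arrays labelled knockout and 8.42, 8.13 and 8.18 in wild type. Its difference was 0.13 (95% interval -0.32 to 0.57), and the groups overlapped.

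**Figure D3:**
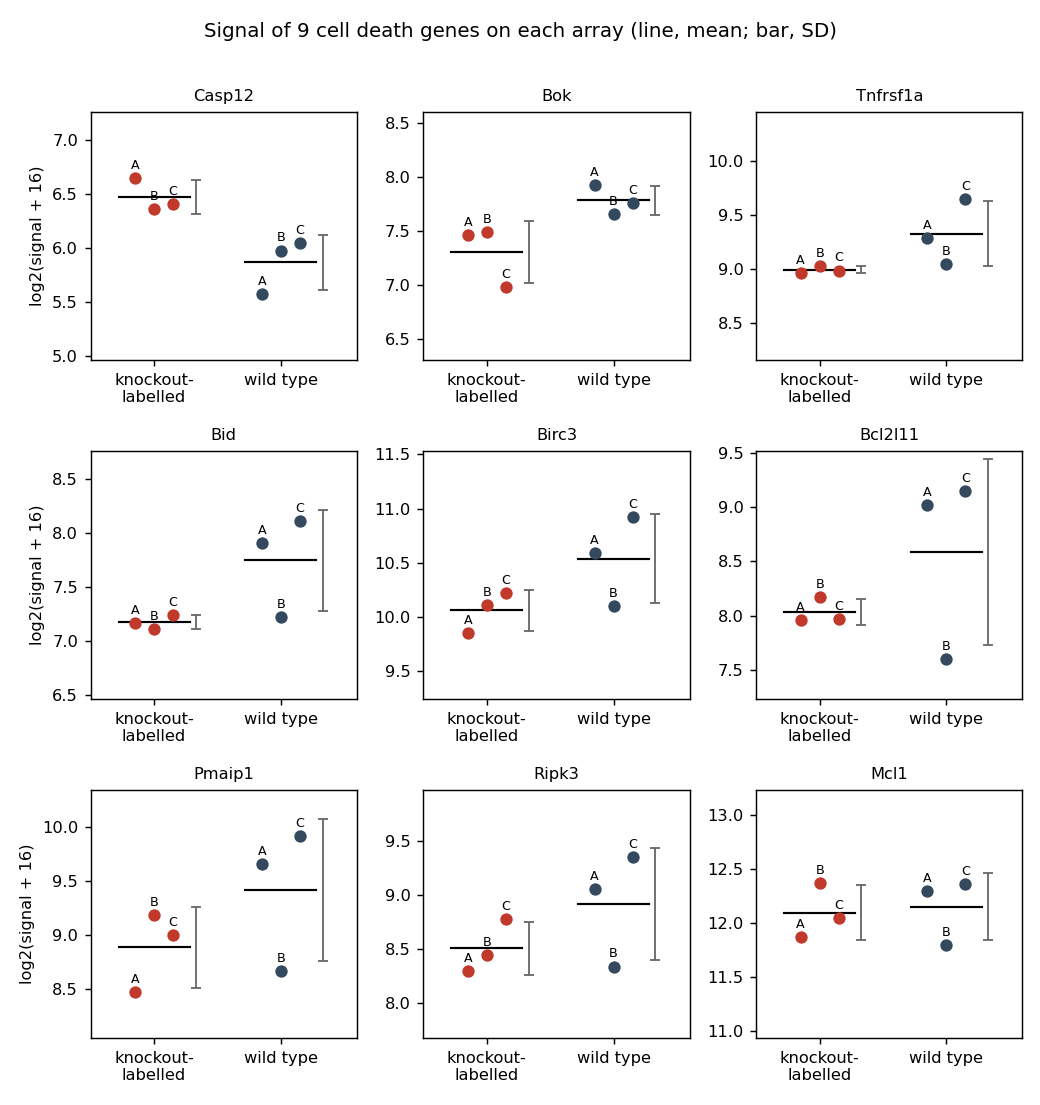
Signal, log2(signal + 16) after quantile normalization, of 9 genes on each array, each panel spanning the same range of 2.3 log2 units; letters name the arrays, lines are means and bars SD (n = 3). Casp12, Bok and Tnfrsf1a show groups that do not overlap; for Bid, Birc3, Bcl2l11, Pmaip1 and Ripk3 wild type A and C lie above all arrays labelled knockout and wild type B does not.

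The place of wild type B among these genes was not commoner than in the whole table. It lay inside the range of the arrays labelled knockout for 15 of the 31 genes (48.4%), against 51.4% of all genes tested, and was the nearest wild-type array to their mean for 12 (38.7%), against 48.0%. Wild type A and C both lay above all arrays labelled knockout for 11 of the 31 genes (35.5%), against 16.6% of all genes tested. The 11 were Bcl2l1, Bak1, Bok, Bcl2l11, Bid, Bad, Pmaip1, Birc3, Tnfrsf1a, Tradd and Ripk3, each by its brightest probe set. Where the next brightest probe set passed the filter, it showed the same for Bcl2l11, Bid and Birc3 but not for Bad, Bak1 and Tradd. Both lay below them for 1 gene, Casp12, against 20.2% of all genes. Set against wild type A and C, the mean of the arrays labelled knockout differed by -1.05 for Bcl2l11, -0.91 for Pmaip1, -0.83 for Bid and -0.70 for both Birc3 and Ripk3. Set against wild type B, the same mean differed by 0.44 for Bcl2l11, 0.21 for Pmaip1, -0.05 for Bid, -0.04 for Birc3 and 0.17 for Ripk3. Both comparisons share the arrays labelled knockout. Bok (-0.53 against wild type A and C, -0.34 against wild type B), Bmf (0.30 and 0.32) and Casp12 (0.66 and 0.50) lay on the same side of 0 in both. Without wild type B, 9 of the 31 genes had an unadjusted p under 0.05, against 17.2% of all genes, and the smallest adjusted p among them was 0.143 in limma, so 0 of 31 passed (0.0482% of all genes did). In the other alternatives the smallest adjusted p ran from 0.268 to 1.0. Without that array 12 of the 31 had groups that did not overlap, against 36.8% of all genes. These are by definition the 11 genes and the 1 gene counted above, so this is not a further result. Wild type A and C had the highest Gapdh ratios and the highest T cell marker sums, 735 and 1442, and 2 of the 3 highest B and plasma cell sums, 4236 and 3778. In a fit that included the Gapdh ratio, 7 of the 11 differences turned positive (Bcl2l1, Bak1, Bcl2l11, Pmaip1, Tnfrsf1a, Tradd and Ripk3, from 0.03 to 0.32). In that fit Bid stood at -0.13, Birc3 at -0.04, Bad at -0.18 and Bok at -0.37. The ratio did not overlap between the groups, so that fit cannot tell it apart from the label. Wild type B had the high pancreas marker sum, 293. The part of these cell markers in the values was not tested.

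**Figure D4:**
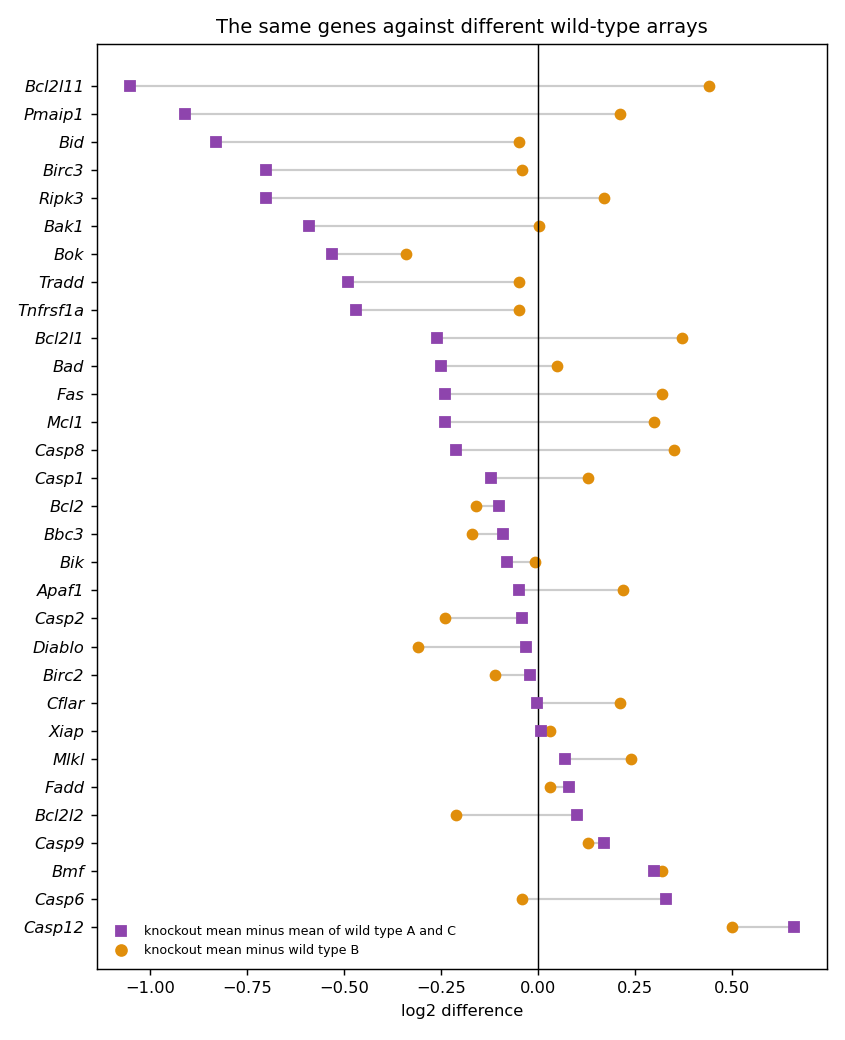
Log2 difference of the mean of the arrays labelled knockout from the mean of wild type A and C (squares) and from wild type B (circles) for the 31 tested genes, sorted by the first; both use the same 3 arrays labelled knockout. Bcl2l11 lies at -1.05 and 0.44, while Casp12 (0.66 and 0.50) and Bok (-0.53 and -0.34) stay on 1 side of 0.

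A list of 55 other genes of these pathways had 42 that could be tested, 22 higher and 20 lower, with a median of 0.02, the same as that of all genes. None passed limma at an adjusted p of 0.05 (0 of 42), and 1, Tnf, had an unadjusted p under 0.05, against 3.94% of all genes. The groups did not overlap for 4 higher and 3 lower of the 42, against 4.68% and 4.38% of all genes. Not all of these are named below. Tnf, the ligand of Tnfrsf1a, had signals of 5.57, 5.70 and 5.94 in the arrays labelled knockout and 6.92, 6.15 and 7.21 in wild type. The groups did not overlap, with a difference of -1.02 (SE 0.29, limma adjusted p = 0.902), and wild type B was the lowest wild-type array. Casp14, a caspase of the skin barrier, differed by -0.61, also without overlap. Ticam1, the TLR adaptor TRIF that can bind Ripk3, stood at -0.45, Tnfrsf1b, the TNF receptor without a death domain, at -0.42, and Traf2, an adaptor of the TNF receptor complex, at -0.42. On the higher side were Tnfsf10, the gene of TRAIL, at 0.46, and Spata2, which links the deubiquitinase Cyld to the TNF receptor complex, at 0.32. Of these, the groups did not overlap for Spata2, with signals of 8.66, 8.52 and 8.71 in the arrays labelled knockout and 8.40, 8.36 and 8.17 in wild type. By group, the ligands and other receptors had a median of -0.32 over 6 genes and the TNF receptor complex genes -0.22 over 16. The genes of mitochondrial release, such as Cycs and Aifm1, had a median of 0.13 over 5. The medians were 0.02 for the other BCL2 family genes, 0.28 for the other caspases and executioners and 0.11 for the other IAPs.

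Several probe sets of the same gene did not always go together. Of 18 genes with 2 or more probe sets above the filter, 7 had all of them in 1 direction and 11 had some in each. Birc3, Bak1 and Bid were lower on both of their probe sets above the filter, and Casp12, Apaf1, Fadd and Bmf were higher on both.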

How the data were processed

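Signals came from 6 Affymetrix 3' arrays of mouse colonic mucosa, 3 labelled p38a knockout and 3 wild type. Per the submitters' processing notes the authors' deposited intensity values, 1 linear signal per probe set and array, were made with MAS5; no version or scaling is stated there. The 2% trimmed means were 192 to 222 on the arrays labelled knockout and 117 to 188 on wild type, so the arrays had no common target. Values were taken as log2(signal + 16) and quantile normalized over 45101 probe sets, which removes overall differences in brightness. After removal of those whose mean lay below the 40th percentile (signal about 18.4), 27061 remained, and the brightest probe set with 1 platform symbol stood for each of 12437 genes. Of 34945 such probe sets 34741 were matched by gene identifier and 0 changed symbol. Of the rest, 932 had several symbols, 9160 none here, and 64 were controls.

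Groups were compared over all genes with limma 3.58.1 in R 4.3.3 (lmFit, eBayes with a variance trend; 4 residual and 4.19 prior degrees of freedom), with Benjamini-Hochberg adjustment at 0.05. Single genes without overlap were also compared by exact permutation of the arrays (scipy 1.17.1). Steps were tested on simulated data. The 35 genes and all lists were chosen with earlier results of these data known. Each of the 35 is named. Signals of every array are given by rule for genes with an unadjusted p under 0.05, without overlap, or brightest or dimmest in their role; other genes with array values, and the genes of wild type A and C, were chosen after their values were seen. Of the other pathway genes the 8 with the smallest p are named, with Cycs and Aifm1 as examples. Alternatives were other scalings, pseudocounts of 1 and 64, other filters, averaging all probe sets per gene, eBayes without a trend, a replicate block, leaving out single arrays, the Gapdh ratio as a covariate and wild type B alone as control.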

Additional observations from a re-analysis of the deposited data

How the results depend on the processing

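Each of the 31 differences was recomputed under 17 alternatives, and none of the 31 genes passed an adjusted p of 0.05 in limma under any of them. The direction never turned for 10 genes (Bcl2, Bok, Bid, Bmf, Casp2, Casp9, Casp12, Birc3, Diablo and Mlkl), while 66 of 525 values had the other sign. Several of these 10, though not Bok, Bmf or Casp12, came close to 0. With the Gapdh ratio included, Bid stood at -0.13, Birc3 at -0.04, Mlkl at 0.04 and Casp9 at 0.02. Casp2 stood at -0.02 with arrays as deposited or centred. Bcl2 and Diablo stood at -0.03 with 1 array left out, and Bid at -0.05 against wild type B alone. Part of the 525 could not turn: other filters, eBayes without a trend and the replicate block kept the differences of the main fit. Arrays as deposited and centred gave the same values as each other relative to the median of all genes. The median over the 31 genes stayed between -0.12 and 0.03. Over the whole table, 0 genes were called, against 1 as deposited, 1 with centred arrays, 1 at a pseudocount of 64, 1 against wild type B alone, 3 with a replicate block and 0 to 6 with 1 array left out, the 6 without wild type B. Same-letter arrays did not stand apart from other pairs across the groups. Their deviations correlated at -0.04 for A, -0.11 for B and 0.45 for C, inside the range of -0.45 to 0.51 for different letters. The replicate block left 0 of the 31 genes called. For Casp12 the difference lay between 0.36 and 0.77. With arrays as deposited or centred, relative to the median shift of all genes (0.43 and 0.20), the sign turned for Bcl2l1 (0.04), Bcl2l2 (0.08), Casp1 (0.0057), Casp8 (0.03) and Birc2 (0.03), and with the mean of probe sets for Bcl2l2 (0.04), Bik (0.03) and Xiap (-0.03). With the Gapdh ratio as a covariate it turned for Bcl2l1 (0.32), Mcl1 (0.27), Bak1 (0.26), Bcl2l11 (0.25), Bik (0.04), Pmaip1 (0.14), Casp1 (0.12), Casp6 (-0.12), Casp8 (0.35), Xiap (-0.04), Fas (0.14), Tnfrsf1a (0.03), Fadd (-0.00049), Tradd (0.03) and Ripk3 (0.08). Against wild type B alone it turned for Bcl2l1 (0.37), Mcl1 (0.30), Bak1 (0.0021), Bcl2l11 (0.44), Bad (0.05), Pmaip1 (0.21), Casp1 (0.13), Casp6 (-0.04), Casp8 (0.35), Fas (0.32) and Ripk3 (0.17), where the lone array is assumed to vary like the others. With 1 array left out, the differences that turned ranged from -0.26 to 0.09 for Bcl2l1, -0.12 to 0.10 for Bcl2l2, -0.24 to 0.06 for Mcl1, -0.25 to 0.004 for Bad, -0.21 to 0.09 for Bik, -0.19 to 0.0034 for Bbc3, -0.21 to 0.08 for Casp1, -0.21 to 0.15 for Casp8, -0.05 to 0.16 for Apaf1, -0.03 to 0.07 for Xiap, -0.12 to 0.04 for Birc2, -0.24 to 0.10 for Fas and -0.02 to 0.15 for Cflar. The cause was not tested in any of these. The number of arrays limits the precision: in the main fit, only the interval of Casp12 leaves out 0. Under some alternatives other genes, such as Bok, Bid and Bmf, also had a limma unadjusted p under 0.05. Among the fits with 1 array left out, Casp12 did not without the array labelled knockout A or without wild type A. Against wild type B alone its difference was 0.50.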
